A study of Mus musculus with 4 samples.

Results

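The regions described here are the 379 stretches of the mouse genome that the authors listed as bound by OTX2 in a stage written EPI and in primitive streak (PS) cells, but not in definitive endoderm (DE) cells. They were taken as deposited, every region of the EPI and PS list, with no further choice. They are 379 of 39615 regions in 4 lists, beside 1634 bound in PS only, 6157 in PS and DE, and 31445 in DE only. OTX2 was located by CUT&RUN, in which an antibody guides a nuclease to a protein on chromatin and the released DNA is sequenced. The series holds 4 PS libraries, all from cell lines called OTX2-dTAG-EGFP on a BL6/129 hybrid background, in which OTX2 carries an HA tag. The 3 anti-HA libraries came from the clones 7H, 7H1 and 7H2, and the single IgG control from clone 7H2. Every group therefore carries the edited allele, and an unedited line was not analysed here. Epiblast stem cells were kept in Activin at 20 ng/ml, FGF2 at 12.5 ng/ml and NVP at 175 nM. They became PS cells over 16 h with CHIR, which activates WNT signalling, at 3 uM and Activin A at 40 ng/ml. DE cells followed after 24 h with LDN, an inhibitor of BMP receptors, at 100 nM and Activin A at 100 ng/ml. The label EPI is not spelled out in the sources used here.

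The lists hold positions only. No height, no depth and no value per library came with a region, so no spread between the 3 clones can be given, anti-HA could not be set against IgG, and the cell labels could not be checked against marker genes. The comparisons below count regions, which are not biological replicates. Neighbouring regions are not independent, so their p-values are too small, and the 95% Wilson intervals cover counting error only.

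OTX2 is a homeodomain transcription factor of the bicoid class, whose known site has the core TAATCC. In the pluripotent epiblast it acts with the octamer-binding factor OCT4 (gene Pou5f1) in the primed state, and later it takes part in anterior patterning and in endoderm. The primitive streak is the structure through which epiblast cells leave pluripotency to form mesoderm and endoderm.

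Only 15 of the RefSeq promoter windows, which run from 250 bases before a gene's start to 50 after it on GRCm38.p6, shared bases with an EPI and PS region. Of these 15 windows, 2 held TAATCC on either strand and 2 held the octamer ATGCAAAT on either strand, against 7.06% and 1.73% of all 32851 windows. At PS only, PS and DE and DE only regions, TAATCC was in 8.75%, 11.4% and 6.65% of windows and the octamer in 5%, 2.204% and 1.603%. The 2 TAATCC matches lay inside the region itself, at Gm11729 and at the histone H4 gene H4f16. One octamer match also lay inside the region, 25 to 18 bases before the start of the histone H2B gene H2bc14. The other, at Slc35a2, a nucleotide sugar transporter gene, lay outside it. The bases shared by region and window are shown for the 3 genes whose region held a match, and for Tlx3, a homeobox gene whose whole region lay in the window and held neither motif. They read 5′ to 3′ on the gene's strand, with the match in capitals. A match describes letters and is not a shown binding site.
H4f16 (chr6:136804407-136804496, minus strand): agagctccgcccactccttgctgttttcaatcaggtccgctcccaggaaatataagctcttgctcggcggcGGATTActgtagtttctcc
Gm11729 (chr11:117414139-117414228, plus strand): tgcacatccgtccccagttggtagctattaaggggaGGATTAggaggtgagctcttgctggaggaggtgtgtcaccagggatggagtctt
H2bc14 (chr13:21721879-21722036, plus strand): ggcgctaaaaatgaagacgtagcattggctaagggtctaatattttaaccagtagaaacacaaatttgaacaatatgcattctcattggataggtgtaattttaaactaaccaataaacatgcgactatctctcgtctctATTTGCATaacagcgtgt
Tlx3 (chr11:33203608-33203748, minus strand): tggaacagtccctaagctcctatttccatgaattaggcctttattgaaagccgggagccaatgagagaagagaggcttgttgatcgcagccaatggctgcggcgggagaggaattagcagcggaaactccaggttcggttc

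GGATTA is the reverse complement of TAATCC, and ATTTGCAT that of ATGCAAAT. Other motifs were searched in the same 15 windows. GGGCGG (KLF/SP) was in 7 windows, against 35.7% of all windows, and CAGGTG (E-box) in 5, against 20.2%. The T-box, forkhead, ZIC, TEAD, AP-1 and CTCF motifs were in 1 each. The longer OTX2 site TAATCCC was in 0, against 2.25% of all windows. TAATTA and the SOX, GATA, TCF/LEF, SMAD and FOXH1 motifs were in 0 as well. With 15 windows the shares are counts of single genes. The median GC content of the 15 windows was 54%, against 58% for the 80 windows at PS only regions, 59.3% for the 499 at PS and DE regions, 61.7% for the 3430 at DE only regions and 52.7% for all windows. Sequence outside promoter windows was not used here.

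EPI and PS regions were short and lay mostly away from known gene starts. Their median width was 110 bp, with quartiles of 85 and 152 bp and a range of 5 to 718 bp, and together they covered 47995 bp. Median widths in the other lists were 115 bp for PS only, 123 bp for PS and DE and 119 bp for DE only. Regions under 50 bp made up 14 of the 379 (3.69%, interval 2.21 to 6.10). PS only held 0 of 1634, which allows a share of up to 0.184% (3 counts of the total, the limit used for every count of 0), and DE only 0 of 31445, which allows up to 0.00954%. The shortest regions of those lists were 77 and 62 bp, so a threshold of 50 bp leaves them none and a test against them has no meaning. PS and DE held 186 (3.02%), and the difference from EPI and PS did not pass (adjusted Fisher's exact p = 0.467). Under 100 bp were 42.5% of EPI and PS regions, against 34.6% of PS only, 31.9% of PS and DE and 36.1% of DE only (Fisher's exact test, adjusted p of 0.00784, 6.17e-05 and 0.0146). The shortest widths of 77 and 62 bp also limit the PS only and DE only shares, so part of the difference from those lists is fixed by their minimum width. Both lists with regions under 50 bp are those shared by 2 stages. The shortest EPI and PS region, 5 bp long, had no protein-coding gene within 100 kb, and a region of 27 bp lay inside L1td1, an RNA-binding protein gene of pluripotent cells.

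Of 370 EPI and PS regions, 22 had their midpoint within 1 kb of a protein-coding start site (5.95%, interval 3.96 to 8.84). The other 9, on chromosome 18, had no annotated start and were left out. Starts were also missing for genes on other chromosomes. Regions near such genes were kept and counted as far from a start. The Sulf1 region, inside that gene, was thus placed 5454 kb from a start. DE only had 12.1%, so the EPI and PS share was 0.490 times as high (adjusted Fisher's exact p = 1.73e-04). Shares in PS only (6.25%, adjusted Fisher's exact p = 0.905) and in PS and DE (8.86%, adjusted Fisher's exact p = 0.0680) did not pass. With 1 region kept per gene, or without the regions at small RNA and histone genes described below, the difference from PS and DE passed (adjusted Fisher's exact p of 0.0304 and 0.00757). The first setting keeps the widest region of each gene and every region without a gene, so it changes long lists most. Farther out, 27.3% of EPI and PS regions lay 1 to 10 kb from a start, against 17.2% of PS only, 14.1% of PS and DE and 14.6% of DE only. The median distance was 28.6 kb, against 41.5, 41.9 and 39.2 kb.

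**Figure D1:**
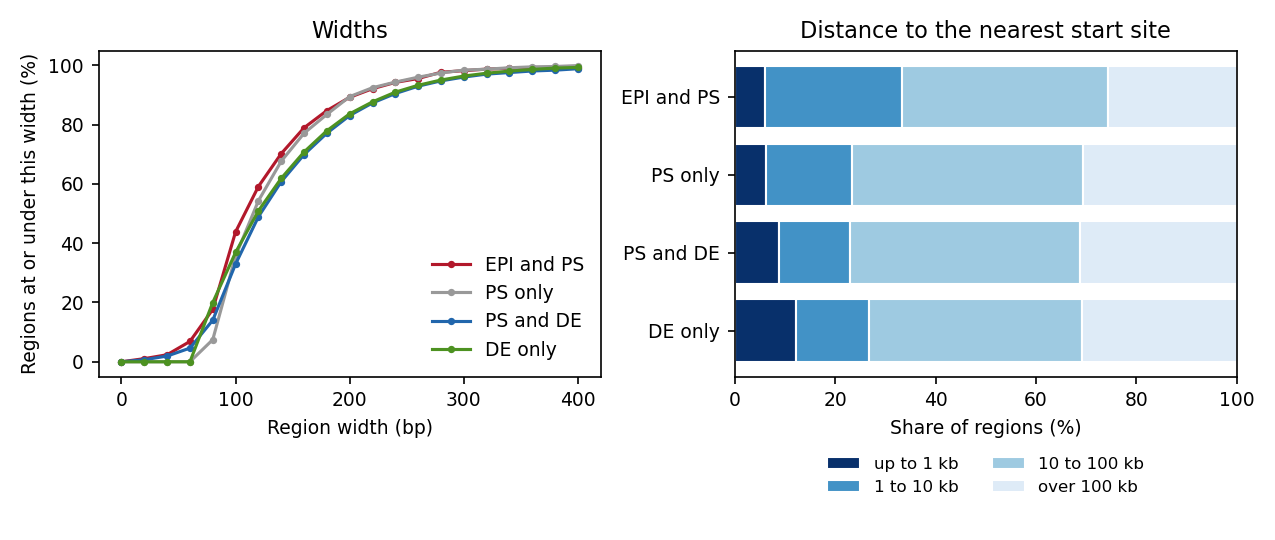
Left, the share of regions (%) at or under each width (bp) in the 4 lists. Right, the share of regions (%) by distance of the midpoint to the nearest known protein-coding start site, where EPI and PS has 27.3% of its regions between 1 and 10 kb and the other lists have 14.1% to 17.2%.

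The 15 known starts nearest to an EPI and PS region belonged to genes of many kinds. The region of 136 bp at Zmpste24, which encodes the protease that processes prelamin A, had its midpoint 0.001 kb from the start. Lamtor2, a subunit of the Ragulator complex, followed at 0.019 kb, H4f16 at 0.020 kb, Naa80, an actin N-terminal acetyltransferase, at 0.023 kb, and 2200002J24Rik at 0.063 kb. Itgb8, an integrin subunit gene, stood at 0.065 kb, H2bc14 at 0.087 kb, Tlx3 at 0.090 kb and Twistnb, a subunit of RNA polymerase I, at 0.133 kb. Lin28a, the RNA-binding protein that blocks let-7 maturation, came next at 0.142 kb, then Zbtb11 at 0.254 kb, Slc35a2 at 0.292 kb and Phc1, a Polycomb subunit gene, at 0.505 kb. The last were the histone gene H4c9 at 0.520 kb and Gm38523 at 0.530 kb. Of these 15 genes, 3 encode histones.

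Inside the span of a protein-coding gene lay 154 of the 379 regions (40.6%, interval 35.8 to 45.6), against 44.4% of PS only (adjusted Fisher's exact p = 0.232), 46.4% of PS and DE (adjusted Fisher's exact p = 0.0432) and 47.5% of DE only (Fisher's exact test, adjusted p = 0.0114). The adjusted Fisher's exact p of 0.0432 is close to the threshold. Its adjustment included tests added after seeing the data, and it may not pass without them. The differences from PS and DE and from DE only also depended on the regions counted. Without the regions at small RNA and histone genes neither passed (adjusted Fisher's exact p of 0.150 and 0.0540). With 1 region per gene the EPI and PS share was 40.7% and lay 5.47 points above DE only, which fell to 35.25%. That setting keeps every region without a gene, all of them outside gene spans, and removes only regions assigned to a gene. The share of a long list can therefore fall by the rule alone, and no conclusion is drawn from the turn. Since only gene spans were annotated, whether a region was exonic, intronic or in a UTR was not determined.

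A region was counted for the shortest protein-coding gene span around its midpoint or, failing that, for the closest gene end up to 100 kb away. This placed 335 regions (88.4%) at 317 genes and left 44 without a gene. These 317 genes are 1.45% of the 21887 protein-coding genes, against 5.6% with a PS only region, 16.3% with a PS and DE region and 50.1% with a DE only region. Most of the genes had 1 EPI and PS region, 16 had 2, and Slfn14 had 3. Of the 317 genes, 234 (73.8%) also had a DE only region, 126 (39.7%) a PS and DE region and 47 (14.8%) a PS only region. No region of another list was found at 68 (21.5%), a lower share than the 45.6% of all protein-coding genes. Seen from the other side, the shared genes were 2.13% of the genes with a DE only region, 3.54% of those with a PS and DE region and 3.83% of those with a PS only region. At 248 of the 317 genes (78.2%, against 53.4% of all protein-coding genes) another region of the same gene was listed in DE.

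Of the 288 genes in 15 lists of pathways and cell types, 19 had an EPI and PS region (6.60%, against 1.45% of all protein-coding genes), each with a single region. Core and primed pluripotency genes had the highest share, 5 of 24 (20.8%). The same list had 3 of 24 genes with a PS only region, 12 with a PS and DE region (50%, against 16.3% of all genes) and 21 with a DE only region (87.5%, against 50.1%). No set test was made. The counts were 3 of 38 for the WNT pathway, 2 of 24 for the NODAL and activin pathway, 2 of 22 each for primitive streak, definitive endoderm, FGF and MAPK feedback, and the housekeeping control, and 1 each for the anterior endoderm (of 19), neurectoderm (of 24) and extraembryonic endoderm (of 20) lists. Naive pluripotency (of 15), posterior endoderm (of 16), BMP (of 22), mesoderm (of 20) and the lymphocyte control (of 20) had 0.

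**Figure D2:**
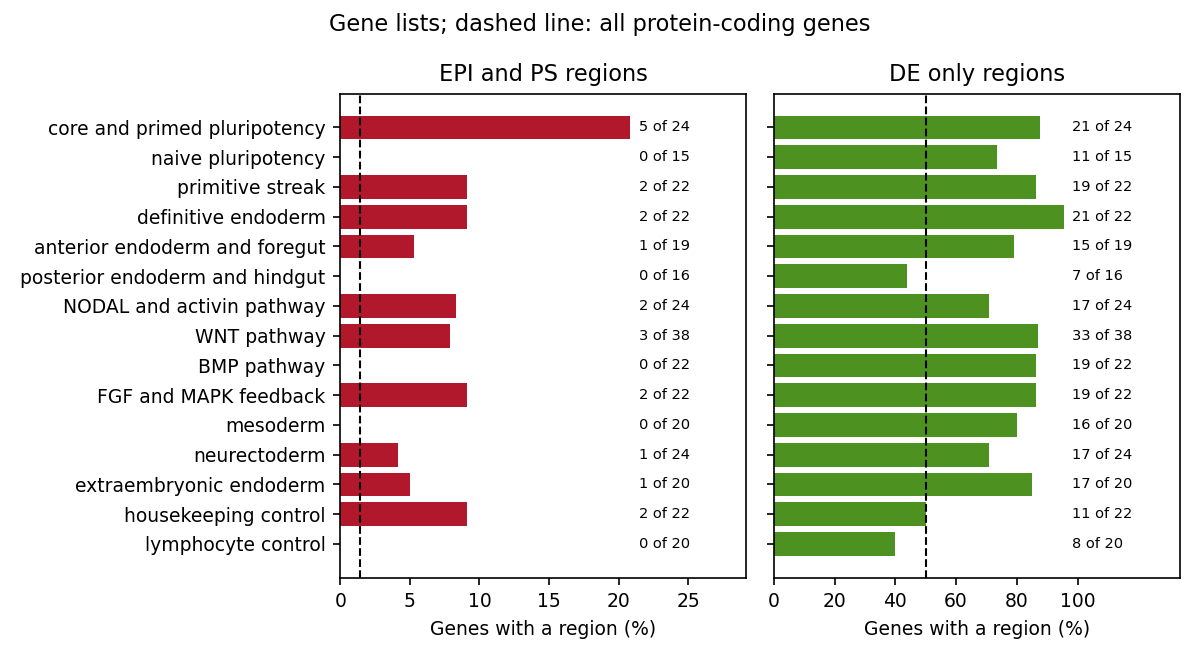
Share of genes (%) in each of 15 lists with at least 1 assigned EPI and PS region (left) or DE only region (right), with the counts beside the bars and the share of all protein-coding genes as a dashed line (1.45% and 50.1%). Core and primed pluripotency has the longest bar for EPI and PS regions, 5 of 24 genes.

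At the pluripotency genes the regions lay close to or inside the gene in 4 of 5 cases. The Pou5f1 region (chr17:35504882-35505049, mm10, 168 bp) had its midpoint 1.07 kb before the start of the gene, outside its span. The nearest PS and DE region was 2.38 kb away, inside the gene, and the nearest DE only region 2.33 kb away, outside it. OTX2 regions of other lists thus lay in and beside the same gene. At Utf1, which encodes a chromatin-associated protein of undifferentiated cells, the region (chr7:139945626-139945745, 120 bp) lay 0.573 kb beyond the gene and 1.83 kb from its start, with 2 PS and DE and 3 DE only regions at the gene. The Lin28a region (chr4:134018912-134019005, 94 bp) lay inside the gene span, and a DE only region lay 0.361 kb from it. The L1td1 region (chr4:98728045-98728071) lay inside the gene, 1.30 kb from the start. This gene had 0 regions of the other 3 lists assigned to it, but a DE only region lay 5.43 kb from the L1td1 region. Foxd3, a forkhead factor of the epiblast and neural crest, was the exception, with its region (chr4:99642283-99642377, 95 bp) 14.0 kb from the gene.

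Of the 4 signalling pathway lists, NODAL and activin, WNT, and FGF and MAPK feedback had genes with an EPI and PS region. Lefty1, a secreted NODAL inhibitor, had its EPI and PS region (chr1:180933852-180933980, 129 bp) 1.11 kb outside the gene, 0.939 kb from a PS and DE region. It had 3 PS and DE regions and 0 DE only regions assigned, though 8 DE only regions lay within 100 kb of the gene. Skil, a SMAD corepressor gene, had its region (73 bp) 5.49 kb outside and 0 regions of the other lists assigned to it. Of the WNT receptors and their partners, Fzd5 held a region of 73 bp and Lgr5, an R-spondin receptor, one of 296 bp (chr10:115469095-115469390) inside the gene, beside 8 DE only regions. Sfrp2, a secreted WNT modulator, had its region 13.0 kb away. Spry4, an FGF feedback inhibitor, had a region of 76 bp 0.119 kb outside the gene, and Dusp4, a MAP kinase phosphatase, one of 121 bp 74.8 kb away. The Dusp4 region lay 0.157 kb from a PS and DE region and 0.368 kb from a DE only region.

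Streak and endoderm genes with an EPI and PS region were Foxa2 and Trh, which stand on both lists. The forkhead factor Foxa2 had 1 such region (chr2:148084920-148085074, 155 bp), 38.0 kb from the gene, against 1 PS only, 6 PS and DE and 12 DE only regions. At Trh, the thyrotropin-releasing hormone precursor gene, the region (chr6:92246410-92246602, 193 bp) lay 1.86 kb before the start, beside 1 PS only and 1 DE only region. Pax9, a paired-box gene of the pharyngeal endoderm, held a region of 83 bp, 0.452 kb from a DE only region. Nes, an intermediate filament gene of neural progenitors, held 1 of 147 bp, with 0 regions of the other lists assigned to it. Lrp2, the endocytic receptor megalin, had 1 of 322 bp 5.79 kb away. Of the control lists, the ribosomal protein genes Rpl13a (0.258 kb outside) and Rps9 (1.24 kb outside) had a region. Over all 19 list genes, 6 regions lay inside the gene, 7 within 2 kb outside it, 4 at 2 to 20 kb and 2 farther, and 15 genes also had a region listed in DE.

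**Figure D3:**
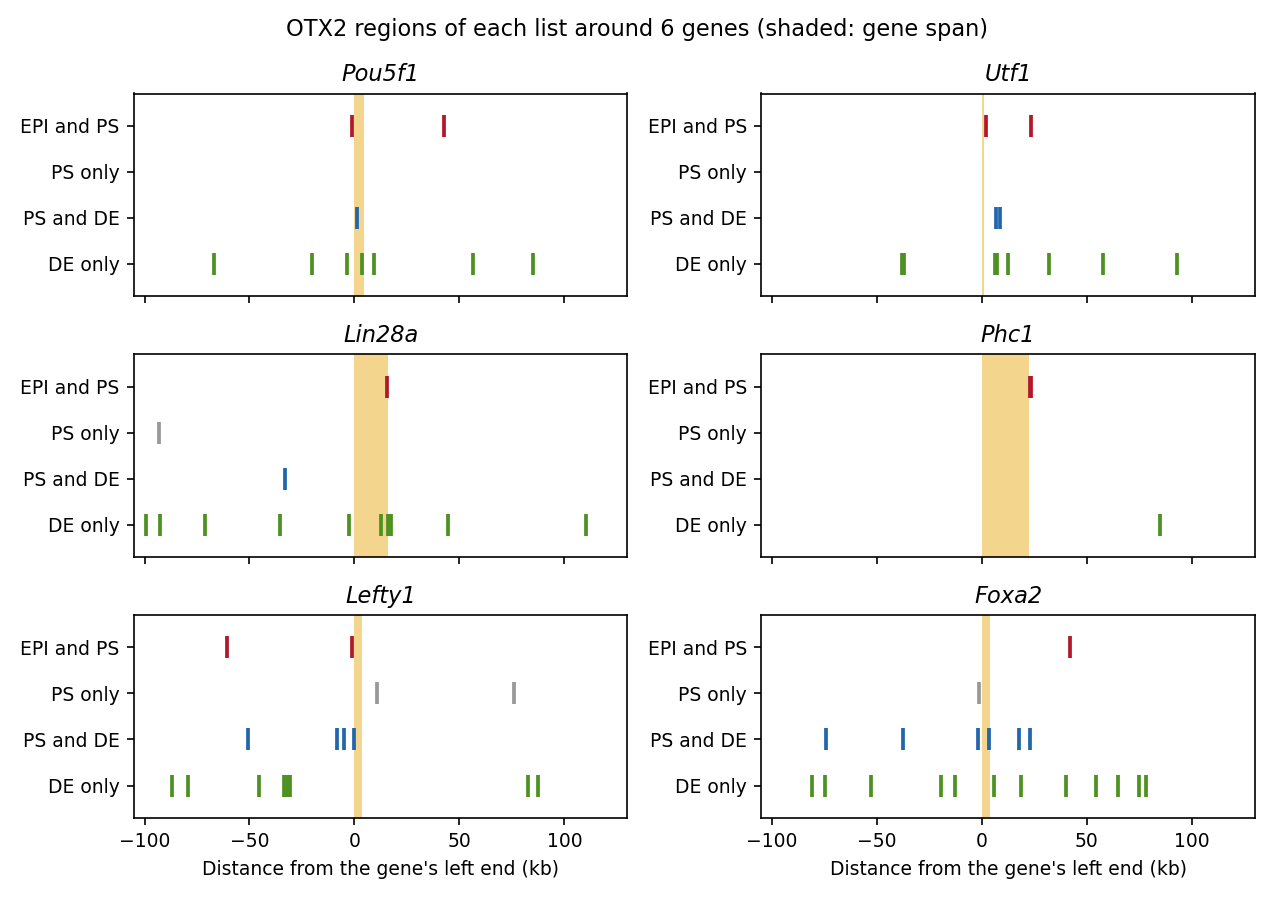
OTX2 regions of the 4 lists (ticks, 1 row per list) by distance in kb from the left end of 6 genes, with the gene span shaded, within 100 kb of each gene. Around Pou5f1 the lists hold 2, 0, 1 and 7 regions from top to bottom, around Phc1 2, 0, 0 and 1, and around Foxa2 1, 1, 6 and 12.

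Regions of the other lists were often near, although by the rule none overlapped. An EPI and PS region had a DE only region within 50 kb in 302 of 379 cases (79.7%) and within 10 kb in 130 (34.3%). A PS and DE region lay within 50 kb of 131 (34.6%) and a PS only region within 50 kb of 53 (14.0%); the order follows the lengths of those lists. Within 0.5 kb, 16 regions (4.22%) had a region of any other list, among them those at Lin28a, Pax9 and Dusp4. The closest pair lay 0.086 kb apart between midpoints, an EPI and PS region of 59 bp on chromosome 3 with no gene within 100 kb and a PS and DE region. The regions assigned to Mgat5b and Dusp4, which lie 51.5 and 74.8 kb from those genes, were 0.120 and 0.157 kb from a PS and DE region. The region assigned to Enc1, 3.24 kb from the gene, was 0.157 kb from a DE only region. A neighbour of their own list within 1 kb was found for 18 EPI and PS regions (4.75%), against 5.20% of PS only, 8.64% of PS and DE and 12.2% of DE only regions. Within 50 kb it was found for 48 (12.7%), against 20.6%, 45.2% and 81.3%. The lists differ in length, so these shares are not comparable between them. The 379 regions formed 361 loci when those within 10 kb were joined.

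The 17 genes with 2 or 3 regions held 35 of them. Phc1 had 2 regions 0.505 and 0.943 kb before its start, of 257 and 64 bp, and 0 regions of the other lists; the nearest DE only region was 61.3 kb from them. Tmem222 likewise had 2 (85 and 111 bp, 4.39 and 4.97 kb from the gene) and none of the other lists assigned to it. The nearest DE only region was 10.6 kb from them. Ror2, a WNT5A receptor, held 2 within its span (85 and 220 bp) beside 7 DE only regions. Trp73, a p53 family member, held 2 (150 and 85 bp), the latter 1.08 kb from its start. Deptor, an inhibitor of mTOR, had 2 outside the gene, 0.782 and 2.59 kb from PS only regions. The 2 regions assigned to Clybl included one 49.2 kb from the start of Zic5, a zinc finger factor gene. Xkr4, Nrcam, a cell adhesion gene, and Bcar3 also had 2. In the remaining genes, pairs lay beside genes for small RNAs: 11 of the 35 regions, at Hhat, Pecr, Slfn14, Tex14 and Zfp184, were within 1 kb of a tRNA or snRNA gene, and 7 others, among them those at Rcc1 and Rps12, were within 5 kb of a snoRNA or ribosomal protein gene.

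EPI and PS regions lay beside tRNA, snRNA and histone genes far more often than regions of the other lists. These genes encode the adaptors of translation, small nuclear RNAs, most of which serve splicing, and the proteins of the nucleosome. The comparison was added after the pattern had been seen in the data. A midpoint within 1 kb of a tRNA gene was found for 9 of 379 EPI and PS regions (2.37%, interval 1.25 to 4.45). In PS only it was 4 of 1634 (0.245%), in PS and DE 3 of 6157 (0.0487%) and in DE only 31 of 31445 (0.0986%). The EPI and PS share was 9.70, 48.7 and 24.1 times as high, with adjusted Fisher's exact p-values of 1.71e-04, 3.82e-09 and 3.82e-09.

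Genes that RefSeq lists as snRNA stood within 1 kb of 11 EPI and PS regions (2.90%, interval 1.63 to 5.12), against 2 of PS only (0.122%), 8 of PS and DE (0.130%) and 33 of DE only (0.105%). The ratios were 23.7, 22.3 and 27.7, with adjusted Fisher's exact p-values of 1.14e-06, 3.82e-09 and 2.87e-11. Histone genes stood within 1 kb of 5 EPI and PS regions (1.32%, interval 0.565 to 3.05), against 0 of PS only (allowing up to 0.184% by the limit of 3 counts), 0 of PS and DE (allowing up to 0.0487%) and 8 of DE only (0.0254%). The adjusted Fisher's exact p-values were 3.47e-04, 1.28e-06 and 7.14e-07. In all, 25 EPI and PS regions (6.60%) were beside one of the 3 kinds, against 0.367%, 0.179% and 0.226% of the other lists.

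**Figure D4:**
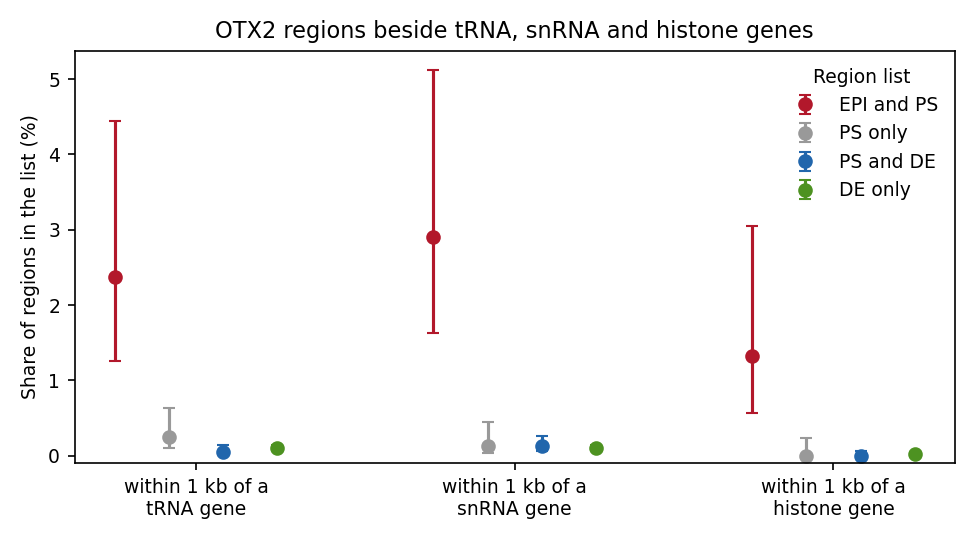
Share of regions (%) whose midpoint lies within 1 kb of a tRNA, snRNA or histone gene, by list; points are shares and bars 95% Wilson intervals, which for counts of 0 reach higher than the limit of 3 counts. The EPI and PS shares are 2.37%, 2.90% and 1.32%, and those of the other lists are at most 0.245%.

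The 9 regions at tRNA genes lay in 8 loci on 6 chromosomes, with a median distance of 0.123 kb to the tRNA gene. The closest (chr13:23427003-23427140) had its midpoint 0.024 kb from n-TYgta5, a tyrosine tRNA gene, and shared bases with it. On chromosome 13, n-TSaga5 and n-TStga2, serine tRNA genes, had regions at 0.069 and 0.093 kb and n-TSgct5 one at 0.869 kb. On other chromosomes, regions lay 0.080 kb from the glycine tRNA gene n-TGgcc2, 0.123 kb from n-TWcca5 (tryptophan), 0.129 kb from n-TFgaa6 (phenylalanine), 0.177 kb from n-TRccg2 (arginine) and 0.187 kb from n-TEttc6 (glutamate). The tRNA genes served thus carried 7 amino acids, with serine the only one found more than once.

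The 11 regions at snRNA genes fell into 6 loci on 4 chromosomes. Gm23444, of 191 bases (chr11:83271498-83271688), had 3 regions with midpoints on one side, 0.110, 0.433 and 0.740 kb away and of 283, 199 and 59 bp. The 283 bp region shared bases with the gene. These are the 3 assigned to Slfn14. Rnu3b4 and Rnu3b2, genes of the U3 RNA, a small nucleolar RNA of ribosomal RNA processing that RefSeq lists as snRNA, that lie within the span of the germ cell gene Tex14, had regions at 0.289 and 0.210 kb, each with a DE only region within 0.816 kb. Gm24497 and Gm23472, both of 191 bases, had regions of 465 and 123 bp with midpoints at 0.179 and 0.033 kb. Both regions shared bases with their gene. Gm22265, inside Hhat, which encodes hedgehog acyltransferase, had 2 regions, and Gm22513 and Gm23143 had 1 each.

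Of the 5 regions at histone genes, 4 lay on chromosome 13, at H2bc14 (0.087 kb), H4c9 (0.118 kb), H2ac11 (0.319 kb, a region of 41 bp) and H3c6 (0.955 kb). The other, on chromosome 6, was the H4f16 region shown above, with its midpoint 0.020 kb from the gene, with which it shared bases. The 5 covered genes for H2A, H2B, H3 and H4. Around the 22 tRNA, snRNA and histone genes concerned, the PS only and PS and DE lists had 0 regions within 10 kb and the DE only list had 5, of which 2 were within 1 kb. These 22 genes were picked for an EPI and PS region within 1 kb. The counts of the other lists there are a description and do not test a difference. These gene families occur in near-identical copies, and how reads that align to several copies were handled is not given in the sources used here. Its part in the result was not tested, and the signal of the IgG library at these regions was not analysed here.

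Genes for snoRNAs and ribosomal proteins, given as a description with no test, were near further EPI and PS regions. A snoRNA gene lay within 1 kb of 0 but within 5 kb of 10 regions (2.64%), against 0.245% of PS only, 0.390% of PS and DE and 0.490% of DE only. The ribosomal protein genes had 6 within 5 kb (1.58%), against 0.0612%, 0.0650% and 0.169%. Among these were 3 regions 0.951 to 1.49 kb from Snhg3, a snoRNA host gene.

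Among the 10 widest regions were those of 479 bp beside Hspa1b, which encodes an HSP70 chaperone (1.26 kb from Snord52), the 465 bp region near Pecr, 358 bp inside Nhlrc3, 322 bp at Lrp2, 320 bp inside Frem2, an extracellular matrix gene, 296 bp inside Lgr5, 283 bp by Slfn14 and 280 bp near Abcd4. Of the 10 widest, 4 lay within 2 kb of an snRNA or snoRNA gene, among them those at Hspa1b, Pecr and Slfn14.

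One region had a microRNA gene within 1 kb. It lay inside Lemd1 (chr1:132197791-132197912), 0.237 kb from Mir135b.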

How the data were processed

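CUT&RUN for HA-tagged OTX2 was run on 500000 cells per sample (antibody 1:100), per the labels' protocols. The submitters' processing notes name mm10, MACS2 2.2.6, bedtools 2.30, Bowtie2 2.3.5.1, Picard 2.26.10 and SAMtools 1.14, but neither order nor settings. The authors deposited 4 region lists holding chromosome, start and end, with no score or signal. For peak thresholds and the use of IgG, settings were not given in the sources used here. Starts were converted to count from 1, and distances run from region midpoints.

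Genes, start sites and promoter windows came from RefSeq tables (GRCm38.p6). Starts were known for 79.9% of protein-coding genes. Shares were compared by two-sided Fisher's exact tests with Benjamini-Hochberg adjustment over 18 tests (6 measures, 3 lists; threshold 0.05), of which the tRNA, snRNA and histone measures were added after seeing the data. The 2 tests of regions under 50 bp against lists that hold none by their minimum width are not reported but stayed in the adjustment. These 2 and the added tests have small p-values, which ease the adjustment of the other tests. Calls near 0.05 may therefore depend on them. Code was checked on planted data. No genome was used, so planned motif, GC and repeat comparisons were not run, and promoter windows were searched instead. All members and gene lists were chosen with earlier results of these data known. Genes named are those with 2 or more regions, list genes with a region, and those of the 10 widest regions and 15 nearest starts. A few of these are not reported here. Those in the account of tRNA, snRNA and histone genes, close neighbours, snoRNA hosts and promoter motifs were chosen after their values were seen. Python 3.11.15, pandas 2.3.3, NumPy 2.4.6, SciPy 1.17.1 and matplotlib 3.10.9 were used.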

Additional observations from a re-analysis of the deposited data

How the results depend on the processing

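Of 87 recomputed comparisons under 12 settings, 78 kept their direction and their side of the threshold, among them every tRNA, snRNA and histone comparison (largest adjusted Fisher's exact p 0.00228). The 78 include the comparisons of regions under 50 bp with PS only and DE only on autosomes. Their outcome was fixed by the minimum widths of those lists. The differences below are EPI and PS minus the other list, in percentage points. Counting regions under 100 bp gave 10.6 against PS and DE, now past the threshold. The start-site difference from PS only turned to 0.899 within 2.5 kb and to 0.935 with either gene end; neither passed. That from PS and DE was -3.69 with 1 region per gene and -4.22 without the tRNA, snRNA and histone regions, both passing. The gene-span difference from PS and DE was -0.635 with 1 region per gene and -4.30 without those regions, neither passing. From DE only it turned to 5.47 with 1 region per gene, and was -5.48 without those regions, no longer passing. The setting of 1 region per gene removes more regions from longer lists and keeps every region without a gene. It can therefore lower the gene-span share of a long list by the rule alone. The cause of the other changes was not tested.

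The 317 genes with a region became 300 with assignment within 50 kb, 352 within 1 Mb and 259 by nearest start. List genes numbered 18, 21 and 16, and pluripotency genes 5, 5 and 7. Alternatives for motif windows and repeats were not run for lack of a genome. No paired analysis was possible because the lists carry no replicate. Depth is unknown, so regions missing from a list cannot be told from regions below its threshold.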
